A study of Mus musculus with 2 samples.

Results

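The genes described here control the anaphase-promoting complex (APC/C) and the spindle checkpoint in oocytes: FBXO5, CDC20, FZR1, CDC16, CDC23, CDC27, MAD2L1, BUB1, BUB1B and BUB3. These 10 genes were chosen by name, with earlier results of these data known, and 9 of them have a row among the 38817 genes of the expression table. BUB1B has none by that symbol. It was not looked for under provisional gene names and is not analysed here. The series concerns spermidine, a natural polyamine, and the meiotic maturation of pig oocytes. 1 library labelled SPE, read as the spermidine-treated group, and 1 control library were used, each made from RNA of a pool of 100 matured oocytes. The labels give both groups as wild-type ICR mouse oocytes, with no other allele or agent, and no source used here gives the dose or duration of treatment.

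The labels and the table disagree on the species. The genes of the table lie on pig chromosomes and reach position 315308402, so the values were read as pig gene models, and the SPE and control columns were matched to the samples by name and number alone. No source used here names the genome build of the positions. The libraries held the markers of oocytes: all 14 oocyte markers were above 0 in both, and together they made up 1.01% of the summed expression in the SPE library and 1.09% in the control library. Of 17 granulosa and cumulus markers 16 had a row, and these summed to 10.94 FPKM in the SPE library and 19.03 FPKM in the control library. FPKM is the number of fragments scaled to the length of the gene model and to the mapped fragments of the library. AMH, AMHR2, TNFAIP6, LHCGR and NR5A1 were listed at 0 in both, 9 of the 16 were lower in the SPE library and 2 higher. The theca, stroma and endothelium markers summed to 0.431 and 0.378 FPKM in the SPE and control libraries, with CYP17A1, COL3A1 and VWF at 0 in both, and the blood and immune markers to 0.0242 and 0.395 FPKM, with HBB, CD3E, CD14 and LYZ at 0 in both. The part of these cells in the differences below was not tested.

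The APC/C is the ubiquitin ligase that starts anaphase: it marks securin and cyclin B for destruction, which frees separase to cut cohesin and switches off the cyclin-dependent kinase. CDC20 and FZR1 are its activators and bring substrates to it, FBXO5 blocks it, and the spindle checkpoint holds CDC20 in an inactive complex as long as chromosomes lack proper attachment to the spindle. In oocytes the same machinery is used at several steps. In the mouse, the APC/C with FZR1 helps to keep oocytes in prophase arrest, the checkpoint delays anaphase of the first meiotic division, and the FBXO5 relative FBXO43 holds metaphase II arrest until fertilization.

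The table also holds columns named Con2 and SPD2. By their names these may be second control and spermidine libraries, but they match no sample used here, so they were not analysed, and whether the differences below hold in them is not reported. Only 1 column per group was thus used, which gives neither a replicate error nor a test. The values carry no read counts, so the depth behind them is unknown. The libraries themselves differed: 16031 genes were above 0 in the SPE library and 14556 in the control library. Mitochondrial genes held 65.7% and 62.7% of the summed FPKM in the SPE and control libraries, and the ribosomal RNA genes RN18S and RN5-8S 3.36% and 4.78%. The part of these gaps in the differences below was not tested, beyond the rescaling given at the end. Of the 9 genes 5 reached a mean of 1 FPKM over both libraries and 4 did not. FBXO5 was about as high as CDC20 in the SPE library, whereas in the control library it was well below CDC20. The order of levels was otherwise the same in both libraries: MAD2L1 stood far above the others, CDC27 and BUB3 lay close together below FBXO5 and CDC20, and CDC16, BUB1, FZR1 and CDC23 followed, each below 1 FPKM. Whether neighbours such as CDC27 and BUB3 differ in level cannot be judged without replicates.

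**Figure D1:**
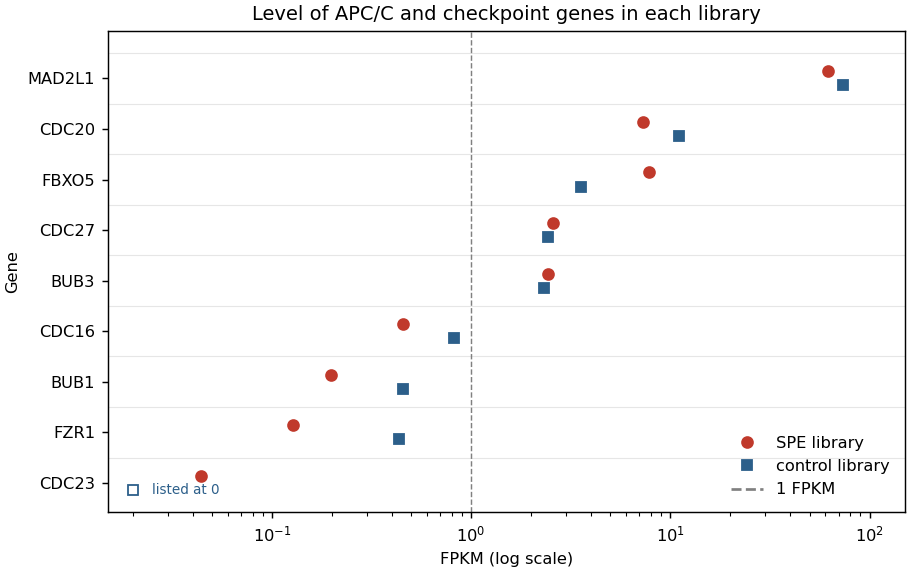
FPKM of each gene (log scale) in the SPE library (circles) and the control library (squares), with genes ordered by their mean over both. MAD2L1 lies at 61.5 and 73.7 FPKM in the SPE and control libraries; CDC16, BUB1, FZR1 and CDC23 lie left of the dashed line at 1 FPKM, and the open square marks CDC23 listed at 0 in the control library.

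MAD2L1, the checkpoint protein that folds around CDC20 and so keeps it from the APC/C, was the highest of the genes. It was at 61.5 FPKM in the SPE library and 73.7 FPKM in the control library, and alone it held 74.6% and 77.8% of the summed FPKM of the 9 genes. It ranked 222 of all genes in the SPE library and 190 in the control library. The log2 ratio of SPE over control was -0.26. This and the ratios below were taken as log2((SPE + 1) / (control + 1)), where the added 1 FPKM understates differences of low genes. The gene lies on chromosome 8 from 111496849 to 111506085. For scale, the log2 ratio of the 171 genes of the table within 1.5-fold of its mean level ran from -0.38 at the 5th to 0.48 at the 95th percentile, a range that holds MAD2L1. This range describes how genes differ from each other and carries no error of any single gene.

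BUB3, the propeller protein that carries BUB1 and BUB1B to kinetochores, was at 2.44 FPKM in the SPE library and 2.32 FPKM in the control library. The log2 ratio was 0.05, near the middle of the genes of like level. BUB1, a kinase that phosphorylates histone H2A at centromeres and so helps to place shugoshin, was at 0.198 FPKM in the SPE library and 0.457 FPKM in the control library. Without the added 1 FPKM the SPE value is 2.32-fold lower, and with it the log2 ratio is -0.28. Both values lie below 1 FPKM, where the number of fragments behind them is unknown. BUB3 lies on chromosome 14 (144290000 to 144302203) and BUB1 on chromosome 3 (47568892 to 47584217). MAD2L1 was 25.2 times as high as BUB3 in the SPE library and 31.8 times in the control library.

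CDC20, the activator through which the APC/C starts anaphase and the target of the checkpoint, was at 7.29 FPKM in the SPE library and 11.0 FPKM in the control library. This is 1.51-fold lower in the SPE library without the added 1 FPKM, and a log2 ratio of -0.54 with it, the most negative of the 9 genes. Among the 678 genes within 1.5-fold of its level, the 5th to 95th percentile ran from -0.55 to 0.65, so CDC20 lay close to the lower end. FZR1, the activator known as CDH1 in yeast and animals, was at 0.128 FPKM in the SPE library and 0.436 FPKM in the control library. This is 3.41-fold lower in the SPE library without the added 1 FPKM, and a log2 ratio of -0.35 with it. Such low levels leave the size and direction of the difference uncertain. The 2199 genes within 1.5-fold of the level of FZR1 ran from -0.53 to 0.60 between the 5th and 95th percentile, a range that holds it. Both activators thus had the lower value in the SPE library, for FZR1 with this limit. Within each library CDC20 was by far the higher of the pair. The level of CDC20 was 57.1 times that of FZR1 in the SPE library and 25.3 times in the control library, and the low FZR1 values leave these ratios uncertain too. CDC20 lies on chromosome 6 (155341127 to 155345061) and FZR1 on chromosome 2 (75783163 to 75789212).

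FBXO5, known as EMI1, occupies the substrate site of the APC/C and blocks it. It was at 7.80 FPKM in the SPE library and 3.56 FPKM in the control library. Without the added 1 FPKM the SPE value is 2.19-fold higher, and with it the log2 ratio is 0.95, just under the 2-fold line. It ranked 1309 of all genes in the SPE library and 2213 in the control library. The 918 genes within 1.5-fold of its level ran from -0.61 to 0.75 between the 5th and 95th percentile, so FBXO5 lay above that range. The ratio of the FBXO5 transcript to the CDC20 transcript does not depend on how a library is scaled. FBXO5 was at 1.07 times the level of CDC20 in the SPE library and at 0.323 times in the control library. This is a 3.31-fold difference between the libraries. Among the 5 genes that averaged 1 FPKM or more, this pair has the most positive and the most negative ratio, so it is the widest by choice. Without the added 1 FPKM, FZR1, BUB1 and CDC16 had more negative log2 ratios than CDC20 (-1.77, -1.21 and -0.86 against -0.60), all 3 at levels below 1 FPKM. Against CDC27, which hardly differed, FBXO5 was at 3.04 times in the SPE library and 1.46 times in the control library, a 2.09-fold difference. The gene lies on chromosome 1 (15716714 to 15728617). In pools, a change in every oocyte and a change in the share of oocytes that hold the transcript cannot be told apart. All values are levels of transcripts, and protein amounts and activity of the APC/C were not measured in these libraries.

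The 3 APC/C subunits among the genes are built of tetratricopeptide repeats and form an arm of the complex. CDC27, which binds the tails of the activators, was at 2.57 FPKM in the SPE library and 2.44 FPKM in the control library (log2 ratio 0.05), so the libraries hardly differed. CDC16 was at 0.453 FPKM in the SPE library and 0.821 FPKM in the control library (log2 ratio -0.33). CDC23 was at 0.0441 FPKM in the SPE library and was listed at 0 in the control library, so no fold is given. CDC27 stood 5.66 times above CDC16 in the SPE library and 2.98 times in the control library. CDC16 lay below 1 FPKM in both libraries, where the number of fragments is unknown, so the size of these ratios is uncertain. CDC16 lies on an unplaced scaffold, CDC27 on chromosome 12 (16834050 to 16905448) and CDC23 on chromosome 2 (145910200 to 145944299). No other gene of the table overlaps the locus of any of the 9 genes.

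On the scale with the added 1 FPKM, none of the 5 genes that averaged 1 FPKM or more reached a 2-fold difference, against 4.99% of the 4391 genes that passed the same filter. FBXO5 was the only 1 of the 5 beyond 1.5-fold, where 13.2% of all genes lay. Without the added 1 FPKM it was the only 1 of the 5 to exceed 2-fold upward in SPE. Of the 4318 genes that passed the filter and were above 0 in both libraries, 5.12% did so. Throughout, shares of all genes are over the 4391, or over these 4318 where no 1 FPKM was added. Counts of 0 or 1 among 5 genes cannot be set apart from these shares. FBXO5, CDC27 and BUB3 had the higher value in the SPE library, and MAD2L1 and CDC20 the lower. Without the added 1 FPKM, FBXO5 was also the 1 gene of the 5 at least 1.5-fold higher, against 11.3% of all genes, and CDC20 the 1 at least 1.5-fold lower, against 8.62%. The median log2 ratio of the 5 was 0.05, against -0.04 over all genes that passed the filter. Over all 9 genes with no filter the median was -0.26, against 0.01 over the 17607 genes above 0 in at least 1 library. The 4 genes under the filter also differed in direction: the SPE value was the higher for CDC23 and the lower for CDC16, BUB1 and FZR1.

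**Figure D2:**
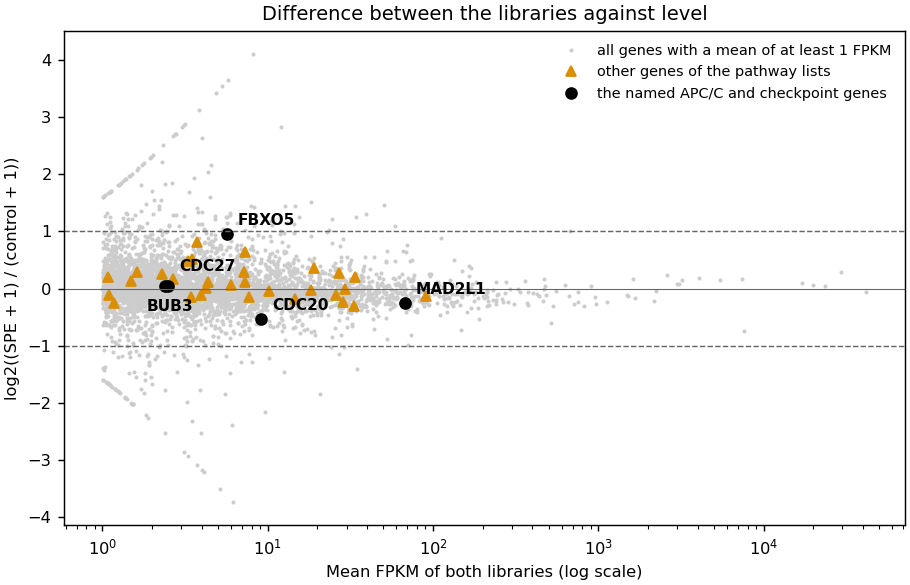
Log2 ratio of SPE over control, with 1 FPKM added, against the mean FPKM of both libraries (log scale), for all 4391 genes that average 1 FPKM or more (grey), the named APC/C and checkpoint genes among them (black) and the other pathway genes (triangles). Dashed lines mark 2-fold; FBXO5 at 0.95 lies just under the upper line and CDC20 at -0.54 above the lower one.

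By a fixed rule, the genes most like FBXO5 and CDC20 were those with a mean within 1.5-fold and the nearest log2 ratio over these 2 libraries, among genes with an established symbol. For FBXO5, from 657 such genes, they were BEX4 (6.003 FPKM in the SPE library and 2.47 FPKM in the control library), FRMD6 (5.94 and 2.77 FPKM in the same order of libraries) and PNN (10.1 and 4.49 FPKM). For CDC20, from 480 genes, they were VAT1, REEP4 and RAB35, with log2 ratios of -0.53, -0.55 and -0.52. With only 2 libraries this likeness says no more than that the level and the difference were close.

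The rest of the pathway was described from lists of 76 genes ordered by role, of which 63 had a row and 30 a mean of at least 1 FPKM. None of the 30 reached 2-fold with the added 1 FPKM, against 4.99% of all genes, and 2 lay beyond 1.5-fold, against 13.2%. Of the 30, 17 had the higher and 13 (43.3%) the lower value in SPE, where 55.4% of all genes had the lower value. Counts of direction in the single lists below are parts of these 30 and stand beside the same share. Without the added 1 FPKM, 4 of the 30 were at least 1.5-fold higher, namely AURKA, CKAP2, CCNB2 and RRM2, against 11.3% of all genes, and 0 were at least 1.5-fold lower, against 8.62%. Their median log2 ratio was 0.09, against -0.04 over all genes. Loci of 8 of the 30 overlap another gene of the table, and no source used here says how reads were divided there.

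Of 10 further APC/C subunits with a row 4 were measured at 1 FPKM or more, 1 higher and 3 lower in the SPE library. ANAPC15, the small subunit that helps the complex shed the checkpoint proteins, was the highest, at 18.2 FPKM in the SPE library and 18.5 FPKM in the control library. ANAPC16, a small subunit, was at 2.58 and 2.01 FPKM in the SPE and control libraries (log2 ratio 0.25). ANAPC7, a repeat-built relative of CDC27, was at 3.21 FPKM in the SPE library and 3.65 FPKM in the control library (log2 ratio -0.14). The loci of ANAPC15 and ANAPC16 overlap TOMT and ASCC1. The median of the 4 was -0.07.

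Among the enzymes and regulators of the APC/C, 4 of 8 were measured. Of these 3 had the higher value in the SPE library, and the median log2 ratio was 0.16. FBXO43, known as EMI2, was the highest, at 35.9 FPKM in the SPE library and 31.2 FPKM in the control library (log2 ratio 0.19). It stood 4.60 times above FBXO5 in the SPE library and 8.77 times in the control library. UBE2C, the ubiquitin-conjugating enzyme that starts chains on APC/C substrates, was at 29.7 FPKM in the SPE library and 24.5 FPKM in the control library (log2 ratio 0.26). USP44, a deubiquitinating enzyme tied to the checkpoint, was at 10.1 FPKM in the SPE library and 10.4 FPKM in the control library (log2 ratio -0.04). Without the added 1 FPKM the SPE value was 1.15-fold the control value for FBXO43 and 2.19-fold for FBXO5, and the difference between these ratios was not tested.

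Of 12 further genes of checkpoint signalling with a row only 3 were measured, 2 higher and 1 lower in the SPE library. SGOL1, a shugoshin that protects centromeric cohesin, was the highest and had the most negative ratio, at 13.7 FPKM in the SPE library and 15.6 FPKM in the control library (log2 ratio -0.18), over a locus that overlaps a provisional gene. Its relative SGOL2, the main protector in mouse oocytes, was at 6.16 FPKM in the SPE library and 5.89 FPKM in the control library. AURKB, the kinase that corrects faulty attachments, was at 1.88 FPKM in the SPE library and 1.37 FPKM in the control library (log2 ratio 0.28). Its locus in the table spans 6328104 bases and overlaps 127 other genes, so its value is uncertain. TTK, the kinase that starts checkpoint signalling, was below the filter at 0.286 FPKM in the SPE library and 0.302 FPKM in the control library. MAD2L1BP, which helps to silence MAD2L1, was also below the filter, at 0.381 FPKM in the SPE library and 0.230 FPKM in the control library. MAD2L1 stood 161 times above it in the SPE library and 320 times in the control library. At such low levels of MAD2L1BP the size of these ratios, and of the gap between them, is uncertain.

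For the outer kinetochore, where the checkpoint proteins gather, 3 of 10 genes were measured, and all 3 were higher in the SPE library. Of all genes 55.4% had the lower value there, and a count over 3 genes cannot be set apart from that share. NDC80, which binds microtubules, was the highest at 4.26 FPKM in the SPE library and 4.23 FPKM in the control library (log2 ratio 0.01). CENPE, a kinesin that brings chromosomes to the spindle equator, had the largest ratio, at 1.23 FPKM in the SPE library and 0.932 FPKM in the control library (0.20). The median was 0.14.

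The substrates of the APC/C and their targets were the best covered, with 16 of 23 measured, 8 higher and 8 lower in the SPE library and a median log2 ratio of 0.05. CCNB1, the cyclin whose destruction ends metaphase, was the highest at 87.19 FPKM in the SPE library and 94.98 FPKM in the control library (log2 ratio -0.12). CCNA2 had the most negative ratio, at 29.8 FPKM in the SPE library and 37.0 FPKM in the control library (-0.30), over a locus that overlaps EXOSC9. AURKA, the spindle pole kinase that the APC/C with FZR1 degrades, had the largest, at 5.02 FPKM in the SPE library and 2.44 FPKM in the control library (0.81). It was the 1 gene of the 30 that passed 2-fold upward in SPE without the added 1 FPKM (2.06-fold), where 5.12% of all genes lay. CKAP2, CCNB2, RRM2, PTTG1 and ESPL1 were added after their values were seen. CKAP2, a spindle microtubule protein, was the other gene beyond 1.5-fold with the added 1 FPKM, at 9.07 FPKM in the SPE library and 5.43 FPKM in the control library (0.65). The B cyclin gene CCNB2 was at 4.28 FPKM in the SPE library and 2.70 FPKM in the control library, with a log2 ratio of 0.51. The ribonucleotide reductase gene RRM2 was at 4.029 FPKM in the SPE library and 2.597 FPKM in the control library, with a log2 ratio of 0.48. The securin gene PTTG1 was at 24.7 FPKM in the SPE library and 26.9 FPKM in the control library, and the separase gene ESPL1 at 29.2 and 29.4 FPKM in the SPE and control libraries. Set against CDC20 itself, CCNB1 was at 11.96 times its level in the SPE library and 8.62 times in the control library, and PTTG1 at 3.38 and 2.44 times in the same order of libraries. CCNB1 and PTTG1 did not rise themselves: both had the lower value in the SPE library. The 2 ratios are higher there only through CDC20, the gene both are set against, which was lower still.

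**Figure D3:**
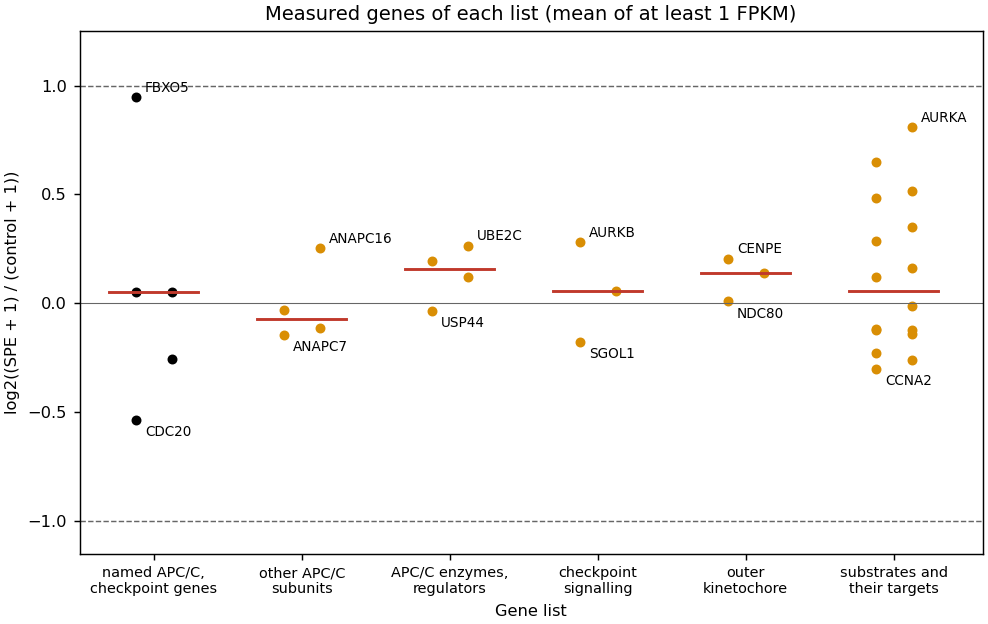
Log2 ratio of SPE over control, with 1 FPKM added, for each gene that averages 1 FPKM or more, by list, with the median of the list as a bar and dashed lines at 2-fold; the lowest and highest gene of each list are named. No gene passes a dashed line; FBXO5 (0.95) and AURKA (0.81) come nearest.

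The direction of each of the 9 genes was the same in all 8 calculations tried, which changed the added value or the scaling of the libraries. For CDC23, listed at 0 in the control library, 7 of these gave a value. For FBXO5 the log2 ratio ran from 0.58 with 5 FPKM added to 1.13 with none, so the choice decides whether it lies beyond 2-fold. CDC20 ran from -0.60 to -0.38 and MAD2L1 from -0.26 to -0.17, within 2-fold throughout. FZR1 ran from -1.77 to -0.08 and BUB1 from -1.21 to -0.07, since the added value weighs most on low genes. These calculations reuse the same libraries, and a change of the added value cannot turn the direction of a gene. Only the changes of scaling could have done so, and a shared direction among the calculations is no independent support.

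**Figure D4:**
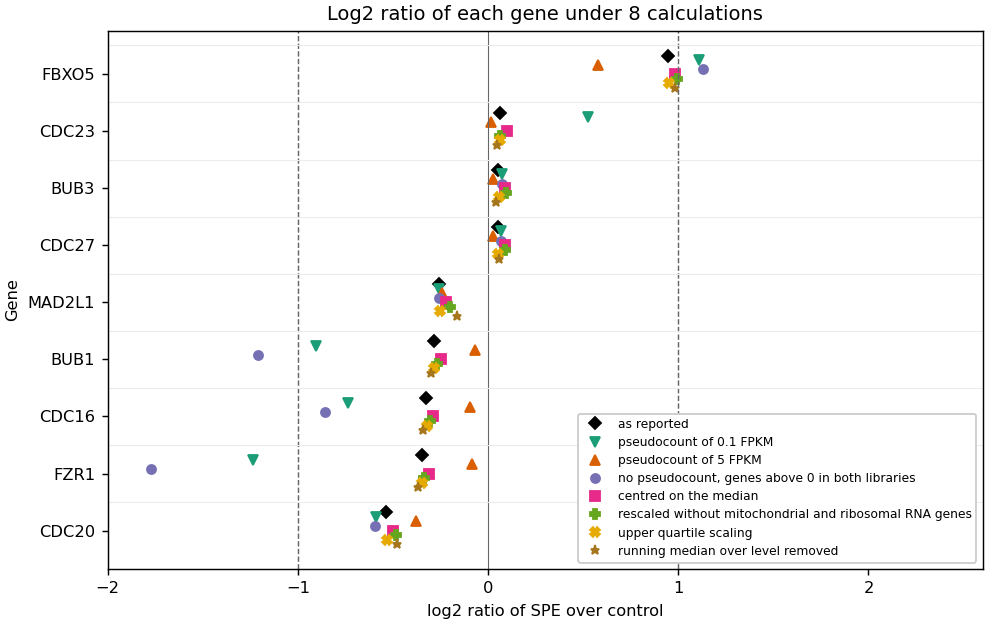
Log2 ratio of SPE over control for each of the 9 genes under 8 calculations, which differ in the FPKM added or in the scaling. Dashed lines mark 2-fold; FBXO5 crosses the upper line with 0.1 FPKM or none added, FZR1 crosses the lower line in the same calculations, BUB1 does so with none added, and CDC20 stays within both.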

How the data were processed

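RNA of pooled oocytes was sequenced on an Illumina HiSeq after library preparation with a NEB kit, per the labels' protocols. The authors deposited FPKM values per gene. Bowtie2 2.2.5, RSEM and mm9 are named in the submitters' processing notes, whereas the table places genes on pig chromosome accessions; no source used here names its annotation or build. Chromosome numbers were read from the order of these accessions, and starts were raised by 1 because some loci start at 0. The SPE and control columns were matched by name and number, and 2 further columns, Con2 and SPD2, entered no computation, although their values for the genes were seen. They match no sample used here, and by their names may be second libraries of the groups.

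Genes averaging 1 FPKM or more over both libraries were kept, 1 FPKM was added before the log2 ratio, and genes at or beyond 2-fold were counted over the whole table. The calculation was run on simulated data, with large planted differences, little noise and changed genes above the filter only. That run checks the arithmetic alone and lends no support to the differences described here. All 10 genes were named, and of each pathway list the highest gene and those with extreme ratios. TTK, MAD2L1BP and SGOL2 were added after their values were seen. The genes and lists were chosen with earlier results of these data known. No pig sequence was used. Python 3.11.15, pandas 2.3.3, numpy 2.4.6 and matplotlib 3.10.9 were used.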

Additional observations from a re-analysis of the deposited data

How the results depend on the processing

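No paired analysis was possible because 1 column per group could be matched to a sample, and the columns Con2 and SPD2 were not used. The count of the 5 measured genes beyond 2-fold was 0 as reported and 1 (FBXO5) with 0.1 FPKM added, with none added and by a 1.5-fold rule. For the 30 other pathway genes it was 0 as reported, 1 with 0.1 FPKM or none added and 2 by the 1.5-fold rule. Over all genes it was 219 as reported, 406 with 0.1 FPKM added, 38 with 5 FPKM added, 366 with none added, 384 with no filter, 48 with a mean of at least 5 FPKM and 580 by the 1.5-fold rule. Rescaling the libraries (by the median, the upper quartile, without mitochondrial and ribosomal RNA genes, or by a running median over 200 genes of like level) moved none of these counts by over 1.5 times. The median of the named genes was 0.05 as reported and ran from -0.26 to 0.09; it was -0.26 both over all 9 with no filter and over the 3 with a mean of at least 5 FPKM, and that of the pathway genes from -0.02 to 0.13, so the sign of either median depends on the setting. Leaving out a library was not possible, and the depth is unknown.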

Other observations

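Of the 63 pathway genes with a row 33 lay below a mean of 1 FPKM. Of these 18 had the higher value in the SPE library and 13 the lower, and 2 were listed at 0 in both. The same share over all genes below the filter was not computed, so the counts cannot be read as a lean of the pathway. Over the whole table, 16031 genes were above 0 in the SPE library and 14556 in the control library. The genes named here were chosen after their values were seen. ANAPC2, which holds the catalytic core of the APC/C, was listed at 0 in both libraries, over a gene model on an unplaced scaffold. ANAPC13 was at 0.198 FPKM in the SPE library and listed at 0 in the control library. TOP2A, a topoisomerase, was at 0.455 FPKM in the SPE library and 0.114 FPKM in the control library, and CDC6, a replication licensing factor, at 0.537 FPKM in the SPE library and 0.234 FPKM in the control library. MAD2L2, a HORMA-domain relative of MAD2L1, went the other way, at 0.0701 FPKM in the SPE library and 0.205 FPKM in the control library, and CENPF, a kinetochore protein, was listed at 0 in the SPE library and at 0.0880 FPKM in the control library. CDK1, the kinase partner of cyclin B and the driver of meiotic maturation, was listed at only 0.164 FPKM in the SPE library and 0.0616 FPKM in the control library. Its locus overlaps a provisional gene. The cyclin gene CCNB1 was at 87.19 and 94.98 FPKM in the same order of libraries.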
